A study of Homo sapiens with 12 samples.

Results

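The SMAD and SKI family genes carry transforming growth factor beta (TGF-beta) and bone morphogenetic protein (BMP) signals from the cell membrane to chromatin. The group held 10 genes, listed by name: SMAD1, SMAD2, SMAD3, SMAD4, SMAD5, SMAD6, SMAD7, SMAD9, SKI and SKIL. All 10 were among the 20136 protein-coding genes of the annotation (GENCODE 44 lifted to GRCh37). For each gene, peaks were sought within 1, 2.5 and 10 kb of its 5′ end, the outermost annotated end, and of any annotated transcript start. A peak counted when at least 1 of its bases lay in the window. Some values are given from the MANE Select start, the start of the transcript chosen as representative by NCBI and EMBL-EBI, which lay up to 1839 bp inside the 5′ end (SMAD3).

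H3K4me3, trimethylation of histone H3 at lysine 4, marks the starts of active genes. It was profiled by CUT&RUN, a method that tethers a nuclease to an antibody on chromatin and sequences the fragments it cuts free. The cells were BON1, a human pancreatic neuroendocrine tumor line, and both groups carried TGL and were grown with puromycin. Control cells, BON1/TGL/pQ, were compared with BON1/TGL/HA-Bcl-xL, a line that overexpresses an HA-tagged form of the anti-apoptotic protein Bcl-xL, and 500000 cells were used per condition. The sources used here do not state whether either line was a clone or a pool, or whether replicates were separate cultures, so the spread between libraries may be technical. Peak lists of 5 H3K4me3 libraries were used, with 6 lists from IgG control reactions, replicates 1 to 3 of each line. For H3K4me3, control had replicates 1 to 3, and HA-Bcl-xL had replicates 2 and 3, its replicate 1 being not analysed here.

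In this pathway, activated receptors phosphorylate the receptor-regulated SMADs. SMAD2 and SMAD3 serve TGF-beta and activin receptors, and SMAD1, SMAD5 and SMAD9 serve BMP receptors. They join SMAD4, the common partner, and bind DNA at target genes. SMAD6 and SMAD7 are inhibitory SMADs that act on the receptors and are themselves induced by the pathway. SKI and SKIL (SnoN) are corepressors that bind SMAD complexes and silence their targets.

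The control H3K4me3 lists held 10247 to 17711 peaks on chromosomes 1 to 22, X and Y, and the HA-Bcl-xL lists held 15497 and 16379. Control IgG lists held 1674 to 2113 peaks and HA-Bcl-xL IgG lists 244 to 268. The lists give no read totals, so the depth of each library is not known directly. The fragments at each summit and the background there were solved from the deposited fold and p-value. The lowest background in a list was 0.0659, 0.0705 and 0.0478 fragments per base for the control H3K4me3 replicates in order. It was 0.0692 for replicate 2 and 0.0681 for replicate 3 of HA-Bcl-xL. The median at a summit was 9 to 12 fragments in the H3K4me3 lists. Among markers of the line, 6 of 8 neuroendocrine genes were called for H3K4me3 in at least 1 library within 1 kb of their 5′ end, including CHGB and SCG2, genes of secretory granule proteins, in all 5. The share of all genes with such a peak was 48.2%. CHGA, the chromogranin A gene, had one in control replicate 1 only. TPH1, which encodes the enzyme that starts serotonin synthesis, had one in both HA-Bcl-xL replicates, with 199 and 107 bases, and in 0 of 3 control replicates, a pattern met by 0.844% of all genes. Markers of lymphoid (3 genes), fibroblast (2), hepatocyte (2) and endothelial (1 matched) cells had none in that window.

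The sequences on which the positions below turn are shown first, read from GRCh37 on the strand of the gene. The first set holds the intronic and upstream intervals of SMAD4 and SMAD2 that were called in more than 1 library. Each is the span from the first to the last base of those peaks, and capitals mark the bases shared by all of them.
SMAD4 intron, chr18:48557263-48557559, plus strand: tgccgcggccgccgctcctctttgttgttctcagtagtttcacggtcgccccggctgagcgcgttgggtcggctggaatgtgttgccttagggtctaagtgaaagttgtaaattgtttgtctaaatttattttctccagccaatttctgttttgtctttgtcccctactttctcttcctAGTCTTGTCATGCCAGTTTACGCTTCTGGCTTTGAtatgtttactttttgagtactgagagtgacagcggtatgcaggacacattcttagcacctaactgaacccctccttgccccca
SMAD2 intron, chr18:45456226-45456467, minus strand: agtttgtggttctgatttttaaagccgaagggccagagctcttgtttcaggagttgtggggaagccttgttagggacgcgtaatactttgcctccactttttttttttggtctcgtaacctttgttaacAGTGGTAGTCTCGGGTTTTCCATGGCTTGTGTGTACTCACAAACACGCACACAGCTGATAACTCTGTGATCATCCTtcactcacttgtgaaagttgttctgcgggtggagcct
SMAD2 upstream, chr18:45457973-45458052, minus strand: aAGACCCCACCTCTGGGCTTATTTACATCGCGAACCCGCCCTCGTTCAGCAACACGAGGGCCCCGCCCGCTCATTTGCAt
The shared part was 35 bp at the SMAD4 intron, 76 bp at the SMAD2 intron and 78 bp at the site upstream of SMAD2.

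The second set holds the 300 bases before the MANE Select start of 3 genes with a match to a SMAD-binding sequence, which capitals mark. The motifs searched on both strands were GTCTAGAC, the palindromic SMAD-binding element, CAGAC, the SMAD box, and GGCGCC, a GC-rich SMAD motif. None of them contains another.
SMAD6 promoter, chr15:66994274-66994573, plus strand: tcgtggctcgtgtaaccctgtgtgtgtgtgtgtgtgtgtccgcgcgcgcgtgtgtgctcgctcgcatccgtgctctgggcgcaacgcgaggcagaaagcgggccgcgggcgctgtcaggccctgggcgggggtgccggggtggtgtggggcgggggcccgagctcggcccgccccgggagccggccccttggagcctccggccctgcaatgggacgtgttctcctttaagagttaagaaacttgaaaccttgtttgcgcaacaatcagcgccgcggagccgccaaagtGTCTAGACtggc
SMAD7 promoter, chr18:46477336-46477635, minus strand: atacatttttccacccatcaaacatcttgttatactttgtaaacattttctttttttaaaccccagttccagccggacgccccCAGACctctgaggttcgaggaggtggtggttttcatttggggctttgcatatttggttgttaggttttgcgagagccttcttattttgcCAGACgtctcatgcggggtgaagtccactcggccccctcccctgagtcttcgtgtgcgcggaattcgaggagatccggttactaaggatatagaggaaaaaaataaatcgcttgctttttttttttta
SMAD3 promoter, chr15:67357640-67357939, plus strand: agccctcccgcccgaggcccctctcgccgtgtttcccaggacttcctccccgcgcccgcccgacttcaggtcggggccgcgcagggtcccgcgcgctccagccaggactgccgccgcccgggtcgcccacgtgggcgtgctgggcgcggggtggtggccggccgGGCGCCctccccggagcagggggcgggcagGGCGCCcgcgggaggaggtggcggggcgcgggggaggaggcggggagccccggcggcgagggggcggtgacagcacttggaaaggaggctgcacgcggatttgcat
GTCTAGAC occurred in 35 of 18917 promoters of this length (0.185%), CAGAC in 42.2% and GGCGCC in 24.6%. Of the 10 genes, SMAD6 alone held GTCTAGAC, whose first base lay at -12 from the start. SMAD7 and SKIL each held CAGAC at 2 positions, and 5 genes held GGCGCC. A match is a description of these letters and not evidence of binding.

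SMAD5 alone was called within 1 kb of its 5′ end in all 5 H3K4me3 libraries, against 21.3% of all protein-coding genes. This rested on weak peaks: with the 10247 strongest peaks of every list SMAD5 was called in 3 of 5 libraries, and with a -log10 q of at least 5 in 2. At least 1 library called such a peak for 4 of the 10 genes: SMAD2, SMAD5, SMAD6 and SMAD7. By library, the number of the 10 genes called was 2, 2 and 1 for the control replicates in order, then 1 for replicate 2 and 3 for replicate 3 of HA-Bcl-xL. The share of all protein-coding genes called in the same libraries was 40.4, 32.4 and 28.2%, and 38.1 and 36.5%. The mean was 1.67 ± 0.577 genes in control (SD, n = 3) and 2.00 ± 1.41 in HA-Bcl-xL (SD, n = 2). The difference of 0.33 was smaller than the pooled SD of 0.943. With 2 libraries against 3, the smallest exact permutation p is 0.1 one-sided and 0.2 when doubled, so a permutation test of such a count could not pass 0.05, and none was run.

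Wider windows brought in most of the family. Within 2.5 kb of the 5′ end, 8 of 10 genes had a peak in at least 1 library, against 53.5% of all genes. Within 2.5 kb of any transcript start this became 9 of 10, against 59.1%, and SMAD9 was the exception. The gene added was SMAD3, at an internal start. This window depends on the number of annotated starts, which ran from 3 at SMAD9 to 20 at SMAD4, so it is not alike between genes. The genes called per library within 2.5 kb of any start were 6, 4 and 2 for the control replicates in order. They were 3 for replicate 2 and 5 for replicate 3 of HA-Bcl-xL. The corresponding shares of all genes were 50.6, 41.8 and 37.0%, and 48.3 and 46.5%. The mean was 4 genes in each line. A window of 10 kb of any start gave the same 9 genes in the same libraries. Still, 1 of the 10 genes was called in all 5 libraries, against 28.7% of all genes, and 5 were called in exactly 1 library, against 7.25%. In control, the counts followed the length of the lists, 17711, 12159 and 10247 peaks, while of the HA-Bcl-xL libraries the longer list, replicate 2, called fewer. With the 10247 strongest peaks of every list, a setting added after the data were seen, the counts became 3, 4 and 2 in control and 1 and 3 in HA-Bcl-xL. The share of all genes called per library was not taken with these lists, so nothing is read from this change.

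At no window used was any of the 10 genes called throughout one line and nowhere in the other with all 5 libraries used. Without HA-Bcl-xL replicate 2, SMAD6 alone of the 10 would meet this rule within 1 kb of the 5′ end. The genes called in HA-Bcl-xL alone would then number 466 of 20136, against 170 with all 5 libraries. With all 5 libraries, 0.844% of all genes were called within 1 kb of the 5′ end in HA-Bcl-xL alone and 0.248% in control alone. Within 2.5 kb of any start these shares were 0.909% and 0.248%. The IgG lists had no peak within 10 kb of the 5′ end of any of the 10 genes. The share of all genes with an IgG peak in at least 1 of the 6 lists was 0.785% within 1 kb of the 5′ end. Near internal starts, 1 of the 10 genes had an IgG peak, against 3.88% of all genes within 2.5 kb of any start. It was a 97 bp peak of 4 fragments in control IgG replicate 3, at chr18:48579875-48579971, near the start of an SMAD4 transcript with a retained intron.

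**Figure D1:**
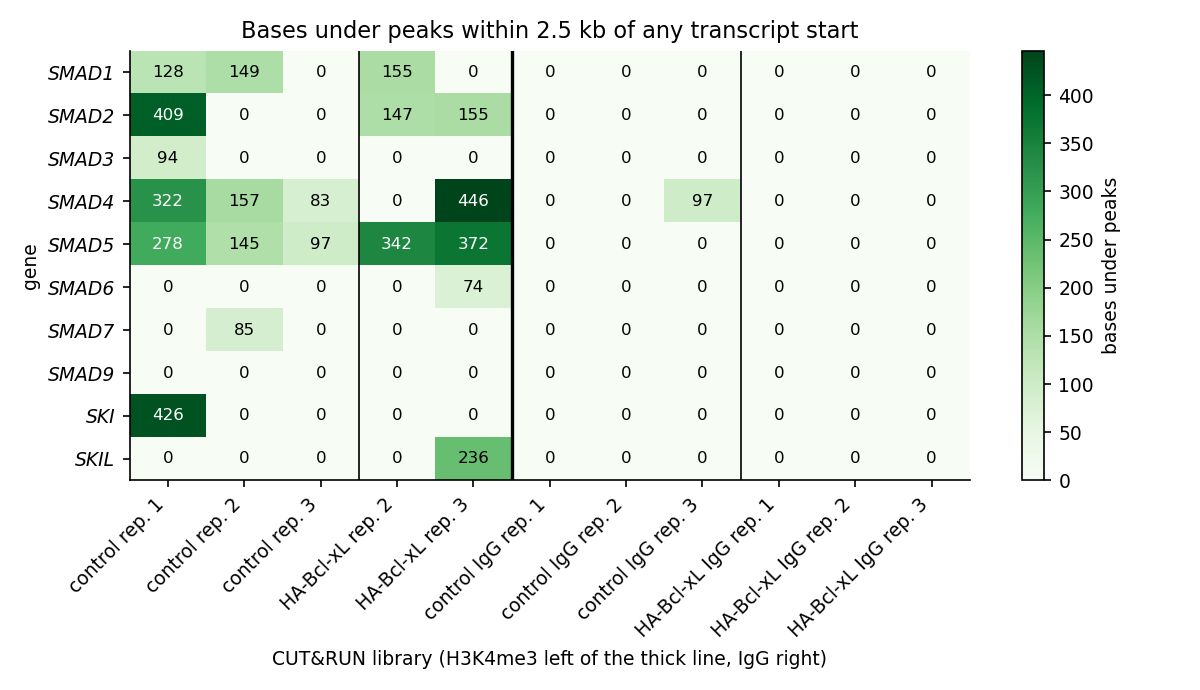
Bases under peaks within 2.5 kb of any annotated transcript start, for each of the 10 genes (rows) in each CUT&RUN library (columns, H3K4me3 left of the thick line and IgG right of it); cell numbers and shading give the same value. SMAD5 is the 1 gene above 0 in all 5 H3K4me3 columns, SMAD9 is at 0 throughout, and the IgG columns hold 1 value above 0, the 97 bases at SMAD4.

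Among the BMP-pathway SMADs, SMAD5 (ENSG00000113658, chromosome 5, plus strand, 5′ end 135468534) was called in the most libraries, all 5 of the lists as deposited. With equal lists, within 2.5 kb of any start, it was called in 3 libraries and SMAD4 in 4, and with a -log10 q of at least 5 in 2 and 3. Control replicate 1 had peaks at chr5:135469188-135469337 and chr5:135469427-135469554, with 11 and 10 fragments at the summits. A single peak of 9 fragments each was called in control replicate 2 (chr5:135469101-135469245) and in control replicate 3 (chr5:135469106-135469202). In HA-Bcl-xL replicate 2 the peaks were chr5:135469106-135469360 and chr5:135469605-135469691, with 13 fragments each. Those of HA-Bcl-xL replicate 3 were chr5:135469046-135469260 and chr5:135469463-135469619, with 10 and 9 fragments. All summits lay 600 to 1120 bp inside the start, over untranslated exons and, for 1 of them, the intron that follows. The antisense noncoding gene SMAD5-AS1 overlaps this gene, and the mark has no strand, so its share of the signal cannot be told apart.

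The bases under peaks at SMAD5 within 2.5 kb of any start were 278, 145 and 97 for the control replicates in order, then 342 for replicate 2 and 372 for replicate 3 of HA-Bcl-xL. Both HA-Bcl-xL values lay above every control value, as they did at 531 of the 5779 genes called in all 5 libraries (9.19%). Within 1 kb of the 5′ end the lines overlapped, at 258, 145 and 97 bases in control and 255 and 287 in HA-Bcl-xL. In limma, on log2 bases with each library centred on its median over these 5779 genes, HA-Bcl-xL minus control was 1.07 (SE 0.417). The unadjusted p was 0.0202, and the Benjamini-Hochberg adjusted p over all genes was 0.936, so the difference did not pass. Of the genes fitted, 276 (4.78%) had an unadjusted p below 0.05 and 0 (0.0%) passed after adjustment. The fitted difference at SMAD5 stayed between 0.77 and 1.25 under the other settings that could fit it, with no adjusted p below 0.656. In the pattern of bases over the 5 libraries, the nearest of the other 5778 genes was ZNF425, a zinc finger gene. Its bases were 308, 145 and 104 in control and 408 and 347 in HA-Bcl-xL, a mean absolute log2 difference from SMAD5 of 0.121. Because only the width of called peaks could be compared between lists, these values say where a peak passed the caller's threshold and not how strong the mark was.

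SMAD1 (ENSG00000170365, chromosome 4, plus strand, 5′ end 146402346) was called in 3 of the 5 libraries, at a place far inside its outermost end. The peaks were chr4:146404114-146404241 in control replicate 1, chr4:146404048-146404196 in control replicate 2 and chr4:146403893-146404047 in HA-Bcl-xL replicate 2. They rested on 10, 9 and 8 fragments. Summits lay 935 to 1206 bp inside the MANE Select start, and the HA-Bcl-xL summit lay 4 bp before a further annotated start. No peak was called in control replicate 3 or HA-Bcl-xL replicate 3, so calls and misses occurred in both lines. A further intronic peak of 4 fragments, chr4:146428188-146428293 in control replicate 1, had its summit 25903 bp from the 5′ end and lay outside every window. SMAD9 (ENSG00000120693, chromosome 13, minus strand, 5′ end 37495024), the third BMP-pathway SMAD, had no H3K4me3 peak anywhere in its gene or within 10 kb of any start. Its only peak of any kind was an intronic one of 3 fragments in control IgG replicate 1, at chr13:37479420-37479525.

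Of the TGF-beta and activin SMADs, SMAD2 (ENSG00000175387, chromosome 18, minus strand, 5′ end 45457517) was called in 3 libraries. Its intronic site, printed above, was called at chr18:45456226-45456467 in control replicate 1 with 14 fragments, the most of any peak in the family. HA-Bcl-xL replicates 2 and 3 called it at chr18:45456226-45456372 and chr18:45456263-45456338, with 8 fragments each. The upstream site was called in control replicate 1 (chr18:45457974-45458052, 11 fragments) and in HA-Bcl-xL replicate 3 (chr18:45457973-45458051, 12 fragments). These upstream peaks, each 79 bp wide, were 1 bp apart at both ends. Control replicate 1 held a further upstream peak of 8 fragments at chr18:45458208-45458295. Bases under peaks were 409, 0 and 0 in control and 147 and 155 in HA-Bcl-xL, so the lines overlapped.

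SMAD3 (ENSG00000166949, chromosome 15, plus strand, 5′ end 67356101) had no peak within 10 kb of its 5′ end or MANE Select start in any library. Its single call was chr15:67418204-67418297 in control replicate 1, with 4 fragments, with its summit over an untranslated exon of an internal transcript, 62154 bp from the 5′ end. That was the smallest fragment number among the family's 30 peaks within 2.5 kb of a start. The promoter printed above held GGCGCC at 2 positions, beginning at -136 and -106 from the start.

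SMAD4 (ENSG00000141646, chromosome 18, plus strand, 5′ end 48554898), the common SMAD, was called in 4 libraries at the intronic site printed above. The peaks were chr18:48557327-48557559, chr18:48557327-48557483 and chr18:48557442-48557524 in control replicates 1 to 3, with 13, 11 and 8 fragments. HA-Bcl-xL replicate 3 called chr18:48557263-48557476 with 12 fragments, and HA-Bcl-xL replicate 2 called nothing at SMAD4. The 4 summits fell within 37 bp of one another, 850 to 887 bp inside the MANE Select start. A second site was called in control replicate 1 (chr18:48556457-48556545) and HA-Bcl-xL replicate 3 (chr18:48556458-48556603), with 9 fragments each and summits at -97 and -59 from the MANE Select start, which the second peak covered and the first did not reach. HA-Bcl-xL replicate 3 also called chr18:48557582-48557667 with 7 fragments.

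SMAD4 shows how the window sets the count. Its MANE Select start lies 1685 bp inside the 5′ end, so no peak fell within 1 kb of that end. The intronic peaks of control replicates 1 and 2 began 2429 bp from the 5′ end, just inside the 2.5 kb window, and that of control replicate 3 began 2544 bp from it, just outside. With 1 kb of the MANE Select start as the window, a choice made after the data were seen, SMAD4 was called in 3 of 3 control libraries and 1 of 2 HA-Bcl-xL libraries. On that window 7 of the 10 genes had a peak in at least 1 library, against 52.9% of 18917 genes with such a start. Counts per library were then 3, 3 and 2 in control and 3 and 5 in HA-Bcl-xL. The difference of means was 1.33 with a pooled SD of 0.943.

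The inhibitory SMADs were each called once at the start. SMAD6 (ENSG00000137834, chromosome 15, plus strand, 5′ end 66994574) had a 74 bp peak in HA-Bcl-xL replicate 3 alone, chr15:66994502-66994575, with 10 fragments and its summit 12 bp before the start. The GTCTAGAC in the sequence printed above lies inside this peak. SMAD7 (ENSG00000101665, chromosome 18, minus strand, 5′ end 46477335) had a peak in control replicate 2 alone, chr18:46477605-46477689, with 7 fragments and its summit 320 bp before the start. The CAGAC matches of its promoter began at -217 and -128 from the start, outside the 85 bp of the peak. SMAD6 and SMAD7 had no peak at a start in the 4 other libraries. Control replicate 2 also held a peak of 3 fragments beyond the 3′ end of SMAD7, chr18:46445677-46445783, among the weakest of that list.

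Both corepressor genes were called in 1 library each. SKI (ENSG00000157933, chromosome 1, plus strand, 5′ end 2158827) had peaks in control replicate 1 at chr1:2160840-2161151, over the coding part of an exon, and at chr1:2162150-2162263 in an intron. They rested on 10 and 13 fragments, and the first, 312 bp wide, was the widest of the family. SKIL (ENSG00000136603, chromosome 3, plus strand, 5′ end 170075130) had a peak in HA-Bcl-xL replicate 3 at chr3:170076315-170076550, with 7 fragments, 855 bp inside the MANE Select start. Bases under peaks were thus 426 at SKI in control replicate 1 and 236 at SKIL in HA-Bcl-xL replicate 3, and 0 for both genes in every other library. A limma fit that also took genes called in at least 1 library, on log2 of bases plus 50, covered 9 of the 10 genes and gave no adjusted p below 0.921 for any of them.

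**Figure D2:**
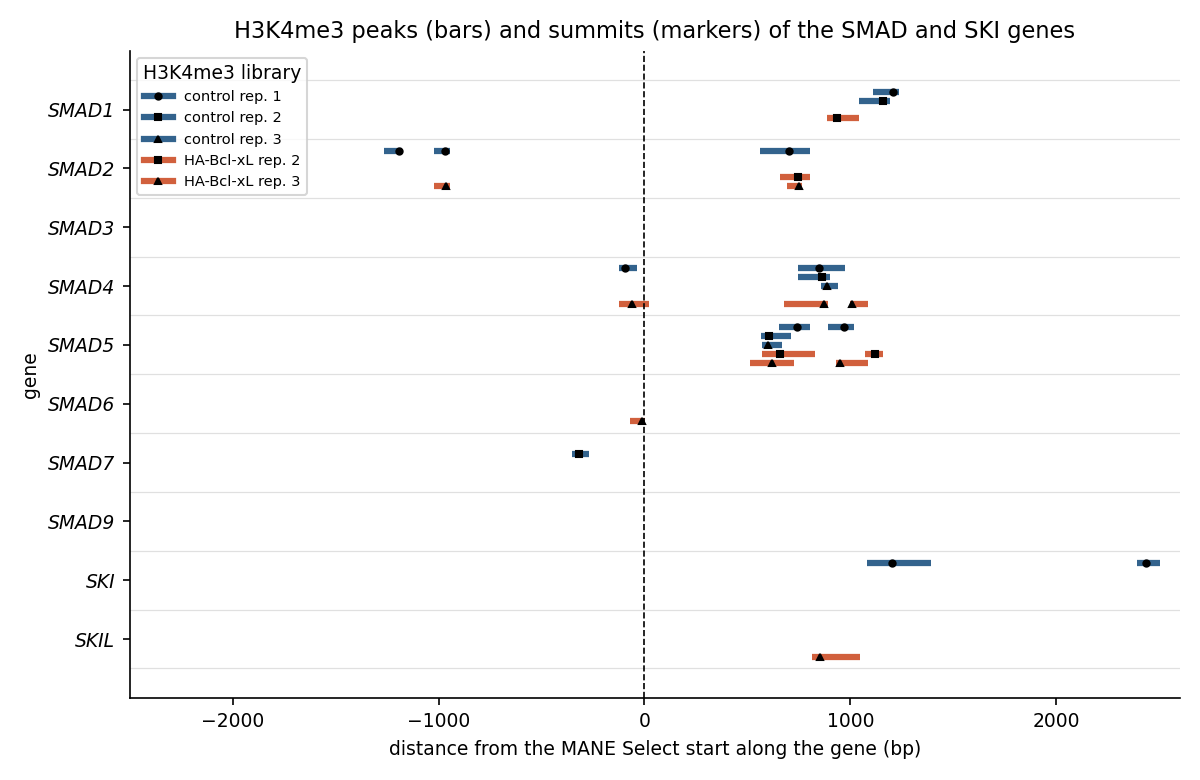
Position of each H3K4me3 peak whose summit lay within 2500 bp of the MANE Select start (dashed line, distance in bp along the gene), with 1 line per library; bars span the peak and markers give the summit. SMAD1, SMAD2, SMAD4, SMAD5, SKI and SKIL have summits 500 to 1500 bp inside the start; SMAD3 and SMAD9 have no peak in this span.

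Most of these peaks lay inside the gene, some distance from the start. Of 29 peaks at 8 genes with a summit within 2500 bp of the MANE Select start, 22 (75.9%) were downstream of it, and the median summit lay 749 bp inside. Over all 63360 such peaks of protein-coding genes in the 5 libraries, 52.9% were downstream, with a median of 24 bp inside. Between 500 and 1500 bp inside the start lay 21 of the 29 (72.4%), against 29.9% of all, a range chosen after the values were seen. Peaks of 1 gene in several libraries are not independent, so these shares describe 8 genes and carry no test.

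The start regions of 5 of the 10 genes were among the richest in G and C. In the 1001 bases around the MANE Select start, SKI had 86.9% GC, tied for the highest of all 18917 genes. In the family it was followed by SMAD2 with 78.2%, SKIL with 76.2%, SMAD3 with 76.0% and SMAD9 with 74.4%. These 5 fell in the top decile of genes by GC content. SMAD4 had 68.9%, SMAD1 67.8%, SMAD5 63.7%, SMAD6 61.0% and SMAD7 60.1%. SMAD6 and SMAD7 thus lay below the middle of all genes, at percentiles 47.9 and 44.3. Over all genes, the mean share with a peak within 1 kb of the MANE Select start per library was 30.4% in the top decile and 52.1% in the fifth decile, where SMAD6 and SMAD7 fell. In the same window, of the 5 genes in the top decile, SMAD3, SMAD9 and SKI were called in 0 of 5 libraries, SKIL in 1 and SMAD2 in 3. Of the other 5, SMAD5 was called in 5 libraries, SMAD4 in 4, and SMAD1, SMAD6 and SMAD7 in 1 each.

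**Figure D3:**
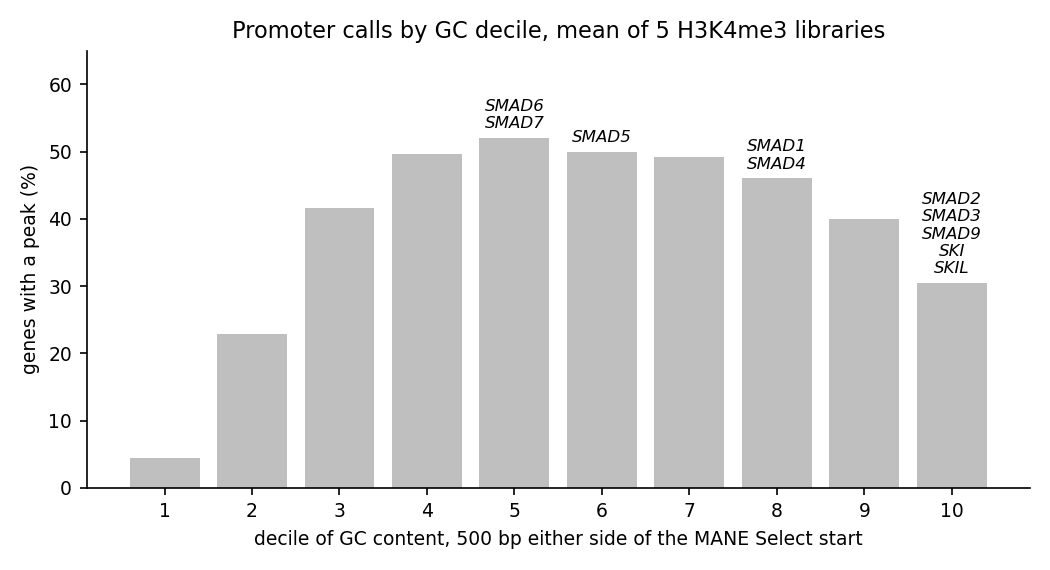
Share of genes with an H3K4me3 peak within 1 kb of the MANE Select start (percent, mean of the 5 libraries) in each decile of genes by GC content of the 1001 bases around that start, with the SMAD and SKI genes written above their decile. The share is 52.1% in the fifth decile and 30.4% in the top decile, which holds SMAD2, SMAD3, SMAD9, SKI and SKIL.

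The called bases themselves were less GC-rich than the start region beside them. This held for 28 of the 29 peaks, with a median of 50% GC under the peak and a median difference of -17.7 percentage points. The 1 exception was a peak at SMAD4, 2.98 points above. At SMAD2 the median peak had 51.5% GC beside 78.2% around the start, and at SKIL the peak had 42.4% beside 76.2%. The SMAD2 and SMAD4 introns printed above had 45.9% and 47.8%, and the SKI intron peak 34.2%. Over all 63360 peaks, 62.6% were below their start region, with a median difference of -3.57 points. In the top decile of genes by GC the share was 93.2% and the median difference -16.7 points. In deciles 5 and 6 together they were 57.1% and -1.76 points. SMAD5, with 8 peaks, fell in these deciles with a median difference of -12.7 points. So did SMAD6 and SMAD7, with 1 peak each, at -11.0 and -10.7 points. Over all genes of the top decile, 49.9% of summits lay 500 to 1500 bp inside the start. In the fifth decile, 23.7% of summits lay in that range, in decile 6 (SMAD5) 27.1% and in decile 8 (SMAD1 and SMAD4) 37.9%. The summits of SMAD6 and SMAD7, in the fifth decile, lay outside it, at -12 and -320 from the start. What part sequence composition had in where peaks were called was not tested.

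By rank, the peaks were in the middle and lower parts of their lists. The percentile of a peak is the share of peaks in the same list that rank below it by -log10 p. The 30 peaks within 2.5 kb of a start ranged from percentile 9.50 (the second upstream peak of SMAD2) to 67.0 (the SMAD2 intron, control replicate 1), with a median of 33.9. They had 4 to 14 fragments at the summit, with a median of 9.5, and were 74 to 312 bp wide, with a median of 136.5. Taking each gene's best peak, the median of the called family members was 46.1, 34.5 and 35.3 for the control replicates in order. It was 27.2 for replicate 2 and 61.2 for replicate 3 of HA-Bcl-xL. For all genes with a peak the medians were 69.1, 65.3 and 63.6, and 68.2 and 68.0. Of all genes with a peak, 42.6 to 48.9% passed percentile 70, a line set above the family's highest value after it was seen.

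The strongest gene differed between libraries. It was SMAD2 in control replicate 1 (67.0) and HA-Bcl-xL replicate 3 (66.8), SMAD4 in control replicates 2 and 3 (63.8 and 35.9) and SMAD5 in HA-Bcl-xL replicate 2 (60.4). At SMAD4 the best percentiles were 63.9, 63.8 and 35.9 in control and 64.8 in HA-Bcl-xL replicate 3. SMAD5, although called in every library, reached 35.8, 27.7 and 34.6 in control and 60.4 and 28.7 in HA-Bcl-xL. Its 2 HA-Bcl-xL values thus lay on either side of the middle of their lists. Ranks from lists of different length show no change between lines.

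**Figure D4:**
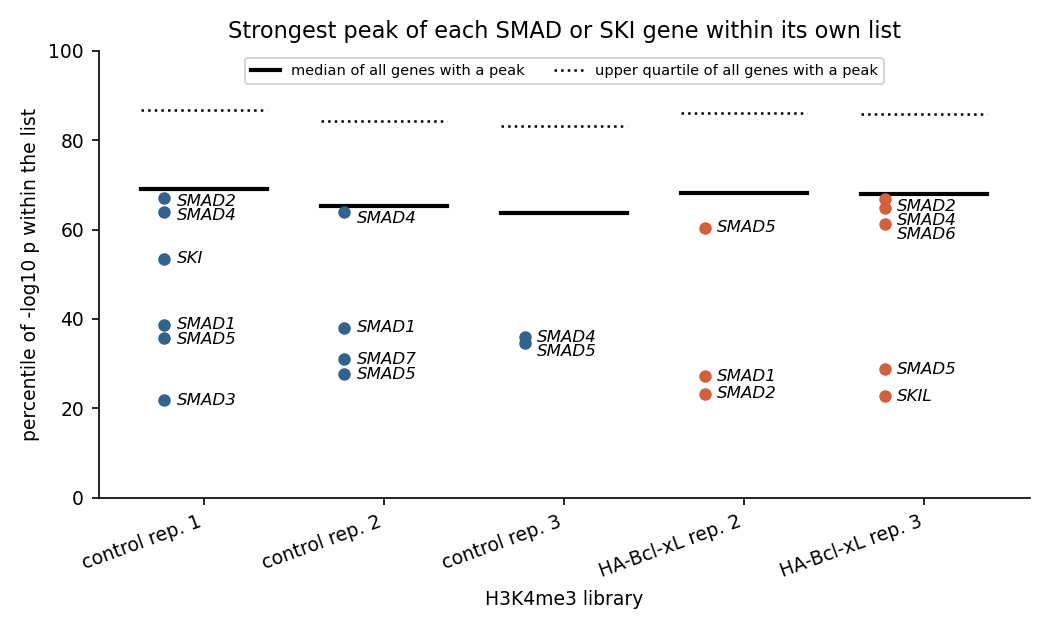
Percentile of the strongest peak of each called SMAD or SKI gene within 2.5 kb of any transcript start (points, ranked by -log10 p within that library's list), for each H3K4me3 library; solid and dotted bars give the median and upper quartile over all genes with a peak. Every point lies below the median of its library, from 21.8 for SMAD3 to 67.0 for SMAD2.

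The ends of overlapping peaks differed between libraries about as often in the family as over all peaks. Among pairs of libraries, 24 pairs of overlapping peaks were found at these genes, of which 5 (20.8%) shared an end to within 1 bp. Over all peaks this was 23.9% of 84105 overlapping pairs. The pair that shared both ends was the SMAD2 upstream site, 1 of 24 (4.17%), against 2.27% of all pairs.

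Genes that feed into the SMADs or act on them were read from 3 lists. Within 1 kb of the 5′ end, 0 of 10 receptor genes were called in every library and 5 in at least 1, beside 21.3% and 48.2% of all genes. TGFBR2, the type II TGF-beta receptor, was called in this window in both HA-Bcl-xL libraries, with 114 and 118 bases, and in no control library, a pattern met by 0.844% of all genes. Within 2.5 kb of any start it was called in all 5, and the limma difference of log2 bases there was 0.06 (SE 0.440, adjusted p 0.997). Of 17 regulators and nuclear partners, 4 were called in all 5 libraries within 1 kb and 9 in at least 1, against the same 21.3% and 48.2%. The 4 were EP300, a coactivator that acetylates histones, SIN3A, a corepressor scaffold, NEDD4L, a ubiquitin ligase for SMADs, and USP15, a deubiquitinase. At EP300 the bases were 498, 351 and 206 in control and 522 and 314 in HA-Bcl-xL, so the groups overlapped. At SIN3A they were 128, 126 and 109 in control and 127 and 124 in HA-Bcl-xL, nearly equal throughout. Of 7 target genes, 2 were called in all 5 libraries, ID1 and ID3, both BMP-induced inhibitors of helix-loop-helix factors, and 4 in at least 1. The lists are short, and nothing is read from their distance to the shares of all genes.

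None of these genes passed the width test in either direction. Of the receptors 3 of 10 could be fitted, of the regulators 7 of 17 and of the targets 3 of 7. The median log2 differences, HA-Bcl-xL minus control, were 0.06, 0.19 and -0.14, beside -0.01 over all genes fitted, and the adjusted p in limma was 0.997 for every one of the 13. SMAD5, at 1.07, lay outside the range of these 13, which ran from -0.65 at the receptor gene BMPR1A to 0.41 at NEDD4L, and it did not pass either.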

How the data were processed

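CUT&RUN libraries from BON1 cells with an H3K4me3 antibody or IgG were deposited as narrowPeak lists, each from 1 library with no pooling of replicates. Per the submitters' processing notes, the genome build was hg19 and the tools were bcl2fastq 2.20, Trimmomatic 0.36, Bowtie2 2.2.9, MACS2 2.1.1 and deepTools 3.5.1; their settings are not given in the sources used here. Each deposited peak has a score, a fold enrichment (ratio) and a -log10 p and -log10 q; the score was 10 times the -log10 q with its decimals dropped, and no deposited q-value exceeded 0.01. These values are the authors' and were used only within a list.

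Only the peaks of chromosomes 1 to 22, X and Y were kept. Fragments at a summit were solved from fold = (n + 1) / (background + 1) and a Poisson tail; the -log10 p was met to 0.001 by 95.9 to 99.97% of the peaks of a list. This arithmetic was inferred from the values, and it covers counting only, since PCR copies are not independent molecules. Bases under peaks were fitted with limma 3.58.1 (R 4.3.3) and Benjamini-Hochberg adjustment over all genes, with no replicate block. The fit and the fragment step were tested on simulated data, and the share of simulated differences recovered is not given here. Python 3.11.15, numpy 2.4.6, pandas 2.3.3, scipy 1.17.1 and matplotlib 3.10.9 were used. Sequences came from the GRCh37 reference with GENCODE 44. The 10 genes, the pathway and marker lists and the motifs were chosen with earlier results of these data known. All 10 genes are described; pathway genes are named if called in all 5 libraries, in all of 1 line and none of the other, or past the width test. CHGA, TPH1 and the pathway genes at the ends of the fitted range, such as BMPR1A, were singled out after their values were seen. PECAM1 did not match the annotation by symbol. Replicate 1 of H3K4me3 in HA-Bcl-xL cells was not analysed here. Alternatives were other windows and starts, the 10247 strongest peaks of every list, peaks with a -log10 q from 5 up, removal of peaks overlapping IgG peaks, at least 50 bases in the window, the summit in the window, other centring and filters, the replicate number as a block, and each library left out in turn.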

Additional observations from a re-analysis of the deposited data

How the results depend on the processing

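Within 1 kb of the 5′ end, the difference between lines in genes of the family called was 0.33. With 1 kb of the MANE Select start, chosen after seeing the data, it was 1.33. Leaving out each library in turn moved the value for the 5′ end between -0.67 (without HA-Bcl-xL replicate 3) and 1.33 (without HA-Bcl-xL replicate 2). A -log10 q of at least 5 gave 0.83 within 1 kb of the 5′ end. Lists with equal numbers of peaks gave 0.5 there, but -0.33, -1 and -0.67 within 2.5 and 10 kb of the 5′ end and 1 kb of any start, in place of 0.67, 0.33 and 0.33, and -1 in place of 0 within 2.5 kb of any start, all moved by at most 1 pooled SD. Over all genes, those called only in HA-Bcl-xL (170) ranged from 218 to 613 when a library was left out, with 613, 466 and 509 without control replicate 1 and HA-Bcl-xL replicates 2 and 3, and the family's count rose from 0 to 1 (SMAD6) without HA-Bcl-xL replicate 2. Those called only in control (50) ranged from 79 (without control replicate 1) to 233 (without HA-Bcl-xL replicate 2), above the full count with any library left out, since fewer libraries must then meet the rule. Equal lists gave 79 of the latter. No family member that could be fitted passed the width test under any setting. Calls over all genes ranged from 0 to 3 when a library was left out; the 3 (GNRH2, PRR14 and an unnamed gene, read after their values were seen) came without HA-Bcl-xL replicate 3, where the lone HA-Bcl-xL library was assumed to vary like control. Without centring the median of all genes moved to 0.10 and SMAD5 had 1.18 (adjusted p 1). The other settings kept 60 of 62 values on the same side of the threshold, within the spread between replicates or, for counts of genes, within 1.5 times, and leaving out a library kept 35 of 46.

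The labels do not say what a replicate number shares, and same-numbered libraries had correlations of deviations of 0.00549 and 0.0313. Different-numbered pairs ran from -0.0313 to 0.0279. With 2 HA-Bcl-xL libraries, the deviations of 1 mirror those of the other, so these values are not separate checks of pairing. With replicate number as a block, limma called 0 genes (361 with an unadjusted p below 0.05), and SMAD5 had a difference of 1.25 with an adjusted p of 0.656. A -log10 q of at least 5 and equal lists left no family member in the fit, since SMAD5 was then called in 2 and 3 of the 5 libraries. Lists of called peaks cannot show a mark below the caller's threshold, so a gene without a peak is not shown to lack H3K4me3.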
